A study of Homo sapiens with 6 samples.

Results

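Protein disulfide isomerases and the oxidases that recharge them form the disulfide-making machinery of the endoplasmic reticulum (ER), and 10 genes of that machinery were examined here in PC-3, an established human line from metastatic prostate cancer. The genes are P4HB, PDIA3, PDIA4, PDIA5, PDIA6, TXNDC5, TXNDC11, ERP44, ERO1L and ERO1LB, taken by their symbols from the 18780 genes of the deposited table, where all 10 had a row. The 6 libraries are 3 of cells given trans-Gnetin H (TGH), a trimer of resveratrol, at 2.5 µM for 24 h, and 3 of cells given its solvent dimethyl sulfoxide (DMSO). Both groups were grown in the same medium with serum, and a single cell line was used. The title of the study sets its aim as depriving advanced prostate cancer cells of glucose by a compound. The labels call the replicates triplicates and do not say whether they were separate cultures, so the p-values measure the spread between these libraries.

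Proteins that enter the secretory pathway are given their disulfide bonds in the ER. An isomerase passes a disulfide from a pair of cysteines in its thioredoxin-fold domain to the client, or reshuffles bonds that were formed wrongly. ERO1 oxidases then reoxidize the isomerase and hand the electrons to oxygen, which yields hydrogen peroxide. Several genes of this set are known targets of the unfolded protein response, the programme by which cells enlarge the folding capacity of the ER.

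All 10 genes were higher with TGH. Values are TPM, a transcript level scaled by transcript length and library total, and differences are TGH minus DMSO on the deposited log2(TPM + 1) scale, which understates changes of genes near 1 TPM. The 10 genes passed limma's test at a Benjamini-Hochberg adjusted p under 0.05 over the 12018 genes that averaged 1 TPM or more, with adjusted p from 3.4e-08 to 0.002. That average was taken over both groups. ERO1LB reached it only through its TGH libraries, at a mean of 0.686 TPM with DMSO and 3.02 TPM with TGH. Its place in these counts is therefore not independent of its rise. Of all genes tested 55.2% were called in either direction, 28.9% higher and 26.3% lower. The median difference of the 10 genes was 0.59, against 0.02 over all genes tested. In each of the 10 genes all 3 TGH libraries lay above all 3 DMSO libraries, an arrangement found in 33.6% of all genes tested. The rises ran from 0.18 for TXNDC5 to 1.78 for PDIA4. Genes at exactly 0 numbered 3074 and 3185 in DMSO replicates 1 and 2 against 1342 to 1530 in the other 4 libraries. Against DMSO replicate 3 alone the differences of the 10 genes were all above 0, with ERO1LB at 1.17 and TXNDC11 at 0.21. In that fit the spread comes from the TGH libraries and the lone DMSO library is assumed to vary like them, so its calls say nothing of the spread among controls. The part of the gap between the DMSO libraries in the results was not tested.

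**Figure D1:**
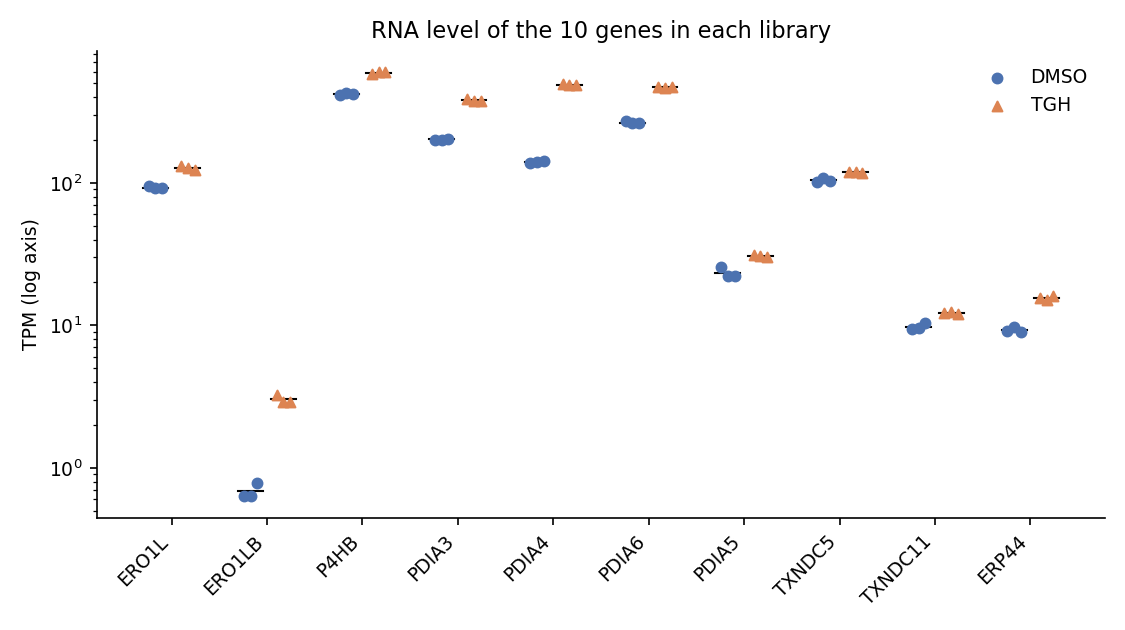
Level of each of the 10 genes in TPM on a log axis, with circles for the 3 DMSO libraries, triangles for the 3 TGH libraries and a black line at each group's mean. The triangles lie above the circles for every gene, and the widest gaps are those of ERO1LB and PDIA4.

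Start-site sequences of 9 of the 10 genes were matched by symbol or older symbol in RefSeq (GRCh38.p14), with 12 windows of 250 bases before to 50 bases after a start; PDIA3 was not matched. They are shown because many ER chaperone genes are known to carry an ER stress element, the letters CCAAT and CCACG with 9 bases between them, which ATF6 and NF-Y read. On either strand this element stood in 2 of the 12 windows, 1 of PDIA6 and that of ERO1LB, and in 27 of 35116 windows of all genes (0.0769%). In that PDIA6 window it lay 86 to 68 bases before the start, on the strand of the gene. Another annotated start of PDIA6 had no match, and the 250 bases before it held neither CCAAT nor CCACG. In the ERO1LB window it lay 243 to 225 bases before the start, on the opposite strand. A window of PDIA4, the gene with the largest rise on the log2(TPM + 1) scale, is shown for contrast. It held CCAAT in 3 places and CCACG in 1, counted on both strands, but never at the set distance. Capitals mark the element in the PDIA6 and ERO1LB sequences and these shorter matches in that of PDIA4, each sequence being the 250 bases before the start, 5′ to 3′ on the strand of the gene (the minus strand of the genome for all 3).
PDIA6, chr2:10812786-10813035: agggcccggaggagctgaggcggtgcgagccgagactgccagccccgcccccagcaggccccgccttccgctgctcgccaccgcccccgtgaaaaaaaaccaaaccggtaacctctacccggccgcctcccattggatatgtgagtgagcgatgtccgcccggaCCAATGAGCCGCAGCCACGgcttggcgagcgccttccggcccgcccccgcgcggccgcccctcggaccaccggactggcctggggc
ERO1LB, chr1:236281959-236282208: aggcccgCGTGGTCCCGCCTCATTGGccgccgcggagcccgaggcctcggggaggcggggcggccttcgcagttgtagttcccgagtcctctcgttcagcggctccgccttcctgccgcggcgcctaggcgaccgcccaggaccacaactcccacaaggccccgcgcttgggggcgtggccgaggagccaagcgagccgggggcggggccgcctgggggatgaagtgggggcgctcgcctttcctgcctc
PDIA4, chr7:149028491-149028740: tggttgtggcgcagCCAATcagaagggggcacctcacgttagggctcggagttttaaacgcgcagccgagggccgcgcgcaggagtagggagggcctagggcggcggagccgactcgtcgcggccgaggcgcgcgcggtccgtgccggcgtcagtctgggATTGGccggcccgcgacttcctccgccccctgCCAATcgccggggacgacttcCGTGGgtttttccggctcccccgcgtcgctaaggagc

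Of the other elements searched, 1 was found among the 10 genes. The letters TGACGTGG, known as an unfolded protein response element, were in 1 window of TXNDC5, 92 to 85 bases before the start, and in the TXNDC11 window from the base 6 after the start, against 0.729% of all windows. A second ER stress element (ATTGG, 1 base, CCACG; 0.0541% of all windows) and the core of the amino acid response element (TGATGNAA; 3.62% of all windows) were in 0 of the 12 windows. A match is a run of letters and not a measured binding site, and no match speaks only for the letters of this window.

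ERO1L, the more widely expressed of the pair of ER oxidases, was measured at 94.4, 92.1 and 91.3 TPM in the DMSO libraries and at 131, 127 and 124 TPM in the TGH libraries. The lowest TGH library thus stood well above the highest DMSO library. Its log2 difference was 0.45 (SE 0.028, limma adjusted p = 3.3e-05). ERO1LB, the oxidase known best from secretory cells of the pancreas, was at 0.638, 0.631 and 0.788 TPM with DMSO and at 3.26, 2.91 and 2.90 TPM with TGH. It was the least abundant of the 10 genes in both groups and had the highest ratio of mean TPM, 4.41. On the log2(TPM + 1) scale its difference was 1.25 (SE 0.074, adjusted p = 3.0e-05). Because its DMSO level is under 1 TPM, this value depends on the offset, with 1.99 at an offset of 0.1 and 0.50 at an offset of 5. Its annotated span overlaps that of GPR137B on the other strand, and whether the authors' counting used strand is not given in the sources used here; GPR137B was at 2.14 ± 0.351 TPM with DMSO and 2.13 ± 0.161 TPM with TGH (SD, n = 3 each).

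ERO1L was the more abundant oxidase in every library, by a smaller factor in each TGH library than in any DMSO library. ERO1L was 148, 146 and 116 times as abundant as ERO1LB in the DMSO libraries and 40.1, 43.7 and 42.6 times as abundant in the TGH libraries. The groups did not overlap, and the log2 ratio differed by -1.69 (exact permutation test over the 3 against 3 libraries, two-sided p = 0.1, the smallest this design allows; adjusted p = 0.15 over 3 ratios). With 1 TPM added to both genes the difference was -0.80.

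P4HB, the namesake isomerase of the family and also a subunit of collagen prolyl 4-hydroxylase, had the highest level of the 10 genes in every library. It was at 410.3, 426 and 422 TPM with DMSO and at 583, 600.0 and 595 TPM with TGH, a log2 difference of 0.50 (SE 0.020, adjusted p = 8.1e-06). The ratios of mean TPM were 1.37 for ERO1L and 1.41 for P4HB, the isomerase this oxidase is known to recharge. ERO1L was at 0.230, 0.217 and 0.217 of the P4HB level with DMSO and at 0.224, 0.212 and 0.208 with TGH. These values overlap between the groups, and the log2 ratio differed by -0.04 (exact permutation test, two-sided p = 0.4, adjusted p = 0.4 over 3 ratios), which does not show that the ratio was equal.

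PDIA4, an isomerase known as ERp72 that binds other ER chaperones, had the largest rise on the log2(TPM + 1) scale, though ERO1LB had the higher ratio of TPM and, at an offset of 0.1, the larger log2 difference. It went from 139, 141 and 142 TPM in DMSO to 491, 483 and 487 TPM with TGH. The 3 values of each group lie within a few TPM of each other, while the groups differ by 1.78 on the log2 scale (SE 0.018, adjusted p = 3.4e-08). Ranked by log2 difference PDIA4 was at place 48 of the 12018 genes. The level of PDIA4 relative to P4HB was 0.336 ± 0.00448 in the DMSO libraries and 0.821 ± 0.0188 in the TGH libraries (mean ± SD, 3 of each). By length-scaled level PDIA4 stood below PDIA6 and PDIA3 in every DMSO library and above both in every TGH library. The log2 ratio differed by 1.29, with the groups apart (exact permutation test, two-sided p = 0.1, adjusted p = 0.15 over 3 ratios).

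PDIA3, known as ERp57, works with the lectin chaperones calnexin and calreticulin on glycoproteins. It was at 200.2, 201 and 203 TPM with DMSO and at 385, 377 and 378 TPM in the TGH libraries. Values within each group lay close together and the groups were far apart, by 0.91 on the log2 scale (SE 0.017, adjusted p = 5.6e-07). PDIA6, known as P5 and a partner of the chaperone BiP, was at 270.0, 262 and 261 TPM with DMSO and at 468, 464 and 470.5 TPM with TGH. Its difference was 0.82 (SE 0.019, adjusted p = 1.0e-06), close to that of PDIA3. A pseudogene of PDIA3, PDIA3P, can share its reads; its row was at 2.33 ± 0.666 TPM with DMSO and 2.68 ± 0.516 TPM with TGH, and with it added to PDIA3 the difference was 0.90. PDIA3 also overlaps ELL3 and CATSPER2P1 on the other strand. ELL3 was lower with TGH (-0.39, adjusted p = 0.0007). CATSPER2P1, with a mean under 1 TPM and so without a test, was at 0.259 ± 0.114 TPM with DMSO and 1.26 ± 0.225 TPM with TGH. ATP6V1C2, which overlaps PDIA6 on the other strand and also lacks a test, was at 0.503 ± 0.0862 TPM with DMSO and 0.749 ± 0.0789 TPM with TGH. Sharing of reads across strands was not tested.

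PDIA5 and TXNDC5 rose less. PDIA5, an isomerase linked to activation of the stress sensor ATF6, was at 25.8, 22.1 and 22.2 TPM with DMSO and at 31.2, 30.7 and 30.4 TPM with TGH. DMSO replicate 1 stood above the other DMSO libraries without reaching the TGH libraries. The difference was 0.38 (SE 0.061, adjusted p = 0.002), and 0.46 without that library. SEC22A, which overlaps PDIA5 on the same strand, rose by 0.25 (adjusted p = 0.0019), and reads could be split between both. TXNDC5, known as ERp46, was at 101, 108 and 103 TPM with DMSO and at 119.7, 119.1 and 116 TPM with TGH. Its rise of 0.18 (SE 0.029, adjusted p = 0.0019) was the smallest of the 10, and the groups still did not overlap. The read-through row BLOC1S5-TXNDC5 covers the same exons, so reads could be split between both rows; it ranged from 2.92 to 8.29 TPM with DMSO and from 3.75 to 6.54 TPM with TGH, and with it added the difference of TXNDC5 was 0.17.

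TXNDC11 and ERP44 are the least abundant members after ERO1LB. TXNDC11, a membrane-bound thioredoxin-domain protein that takes part in clearing misfolded glycoproteins, was at 9.46, 9.55 and 10.4 TPM with DMSO and at 12.2, 12.4 and 12.0 TPM with TGH. Its difference was 0.29 (SE 0.045, adjusted p = 0.0018), while SNN, which overlaps it on the other strand, was not called (-0.13, adjusted p = 0.23). ERP44 cycles between the ER and the Golgi and returns ERO1 oxidases, which lack a retention signal of their own, to the ER. It was at 9.20, 9.71 and 8.98 TPM with DMSO and at 15.5, 15.0 and 16.0 TPM with TGH. It was higher by 0.68 on the log2 scale (SE 0.042, adjusted p = 3.5e-05). Both genes had non-overlapping groups, and ERP44 had the larger rise.

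**Figure D2:**
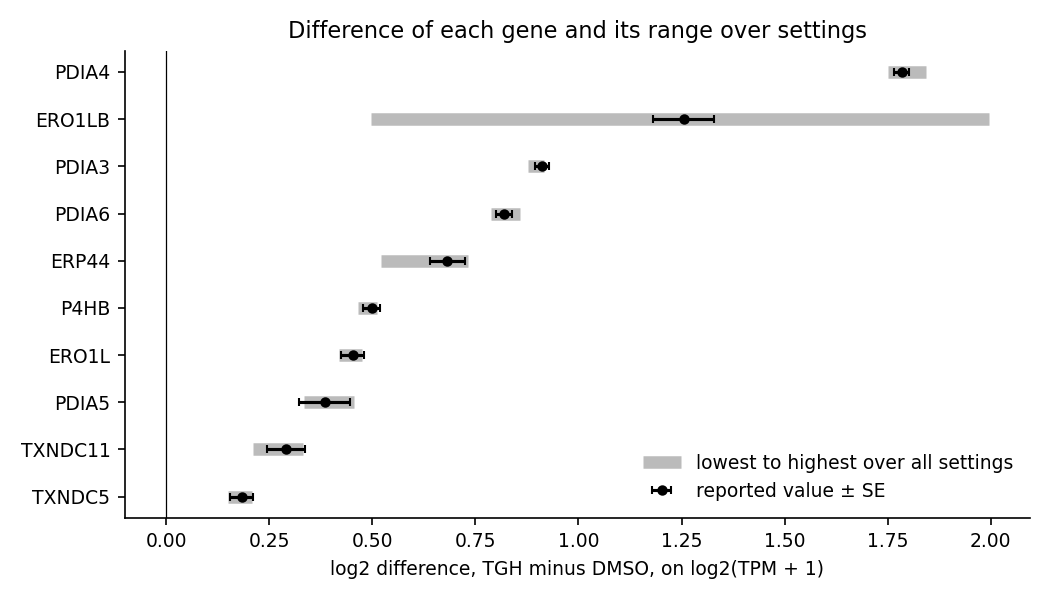
Difference of each gene, TGH minus DMSO on the log2(TPM + 1) scale, with black points and bars for the reported value and its SE and grey bands for the lowest to highest value over all settings tried. The points run from TXNDC5 at 0.18 to PDIA4 at 1.78. Every band lies above 0, the lowest being that of TXNDC5, from 0.15 to 0.21. ERO1LB has by far the widest band, from 0.50 to 1.99, followed by ERP44, from 0.52 to 0.73.

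Summed over the 10 genes the level was 1266 ± 5.49 TPM in the DMSO libraries and 2234 ± 4.09 TPM in the TGH libraries (mean ± SD, 3 of each), a ratio of 1.76. No test was made on this sum. The 8 isomerase genes summed to 1172 ± 6.69 and 2104 ± 2.28 TPM, a ratio of 1.79, and both oxidases to 93.3 ± 1.54 and 130.2 ± 3.69 TPM, a ratio of 1.40. The listed TPM of all genes had a ratio of 1.01 between the groups.

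The make-up of the sum differed between the groups as well as its size. P4HB supplied 33.1% ± 0.489 of it with DMSO and 26.5% ± 0.448 with TGH, while PDIA4 supplied 11.1% ± 0.120 and 21.8% ± 0.138. PDIA4 alone made up 35.8% of the gain in summed TPM. The share of PDIA6 was 20.9% ± 0.458 and 20.9% ± 0.142. TXNDC5 was at 8.23% ± 0.229 and 5.30% ± 0.0749 of the sum, and ERO1L at 7.32% ± 0.151 and 5.69% ± 0.149. P4HB, PDIA5 and TXNDC11 likewise had smaller mean shares with TGH although their levels rose. The share of ERP44 was 0.735% ± 0.0276 with DMSO and 0.695% ± 0.0207 with TGH, and its groups overlapped. These shares have no test, and they are bound to one another because they add up to the whole.

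**Figure D3:**
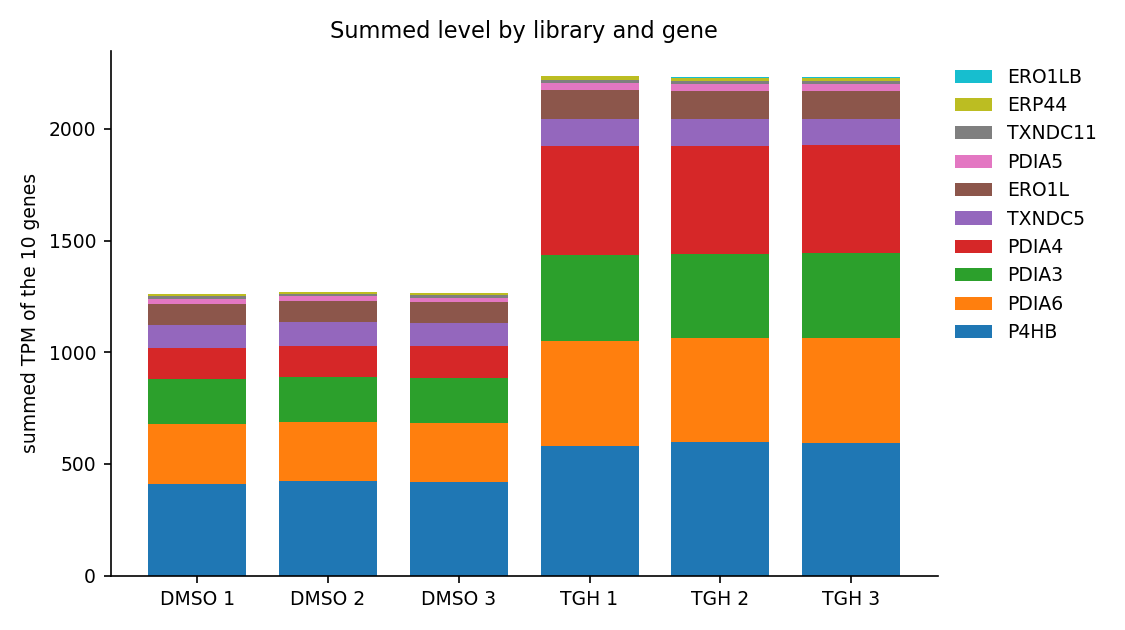
Summed TPM of the 10 genes in each library, stacked by gene with the most abundant in DMSO at the bottom. The 3 DMSO bars reach 1260 to 1271 TPM and the 3 TGH bars 2231 to 2238 TPM, and the PDIA4 segment differs most in height.

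The rest of the isomerase family held genes called in both directions. Of 14 other ER proteins with a thioredoxin fold, 12 had a row and 8 were tested, of which 2 were higher (25%), 3 lower (37.5%; 1 gene without TGH replicate 3) and 3 not called, with a median difference of -0.08. Over so few genes these shares are near those of all genes tested, 28.9% and 26.3%. AGR2, an isomerase needed for mucin folding in secretory epithelia, went from 78.5 ± 3.17 to 172 ± 6.17 TPM (difference 1.12, SE 0.039, adjusted p = 4.2e-06). DNAJC10, known as ERdj5, reduces disulfides of proteins on their way to degradation and went from 29.9 ± 0.232 to 51.5 ± 1.48 TPM (difference 0.76, SE 0.029, adjusted p = 6.0e-06). The membrane-bound members TMX2 and TMX4 fell by 0.17 and 0.23 on the log2 scale (adjusted p = 0.00059 and 0.014), the latter not called without TGH replicate 3 (adjusted p = 0.051). TXNDC12, a small lumenal member, had -0.13 at an adjusted p of 0.049, a call that was lost under 9 other settings. TMX1, TMX3 and ERP29 were not called, with differences of -0.05, 0.08 and -0.11. The 4 remaining genes with a row, PDIA2, ERP27, CASQ1 and CASQ2, had a mean under 1 TPM.

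Other genes of ER oxidation and reduction rose in most cases. Of 16 in the list 15 were tested, with a median difference of 0.20. Of these 11 were higher (73.3%), 2 lower (13.3%) and 2 not called, beside 28.9% higher and 26.3% lower over all genes tested. The list's count of lower genes was 1 under quantile normalization and without TGH replicate 1. The 4 with the smallest p were SELK and VIMP, selenoproteins of ER-associated degradation, at 0.88 and 0.72, SELM, a small lumenal selenoprotein, at 0.55, and H6PD, which makes NADPH inside the ER, at 0.75 (adjusted p at or below 7.6e-05). H6PD is a low gene, at 1.88 TPM with DMSO, and its value was 0.99 at an offset of 0.1 and 0.36 at an offset of 5. PRDX4, the ER peroxidase that uses up hydrogen peroxide made by ERO1, was at 234 ± 3.81 TPM with DMSO and 256 ± 2.43 TPM with TGH, a rise of 0.13 (SE 0.019, adjusted p = 0.0017). PRDX4 is named here for its role in the same reaction, after its values were seen.

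Most tested genes for proteins that work with the isomerases were higher as well. Of 14 partner genes 13 were tested, with 10 higher (76.9%), 1 lower (7.69%), 2 not called and a median of 0.40. The shares over all genes tested were 28.9% higher and 26.3% lower. HSPA5, the chaperone BiP that binds PDIA6, rose by 1.66, HSP90B1 by 1.51, the PDIA3 partner CALR by 1.10 and PPIB, a prolyl isomerase of the ER, by 0.76 (adjusted p at or below 1.4e-06). All 18 markers of the unfolded protein response were higher, against 28.9% of all genes tested, and their median was 1.16. MANF, a secreted survival factor of the ER, rose by 1.87, HYOU1, a large ER chaperone, by 1.49, DDIT3, the transcription factor CHOP, by 2.01 and CRELD2, an ER-resident protein, by 1.40 (adjusted p at or below 1.1e-06). A shared direction with these known response genes is a description of lists chosen with results in view and has no test here.

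Thioredoxin genes outside the ER were called in both directions. Of 17 genes of the cytosol and mitochondria 3 were higher (17.6%), 6 lower (35.3%) and 8 not called, with a median of -0.06, beside 28.9% higher and 26.3% lower over all genes tested. Without TGH replicate 2, or without TGH replicate 3, 1 gene was higher. TXNRD1, the cytosolic thioredoxin reductase, fell by 0.36 (adjusted p = 3.7e-05), GLRX5, a mitochondrial glutaredoxin, by 0.34 (adjusted p = 0.0023) and NXN, a nucleoredoxin, by 0.30 (adjusted p = 0.0035). GLRX, a cytosolic glutaredoxin, rose by 0.58 (adjusted p = 0.00012). The difference between these lists and the 10 genes was not tested.

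**Figure D4:**
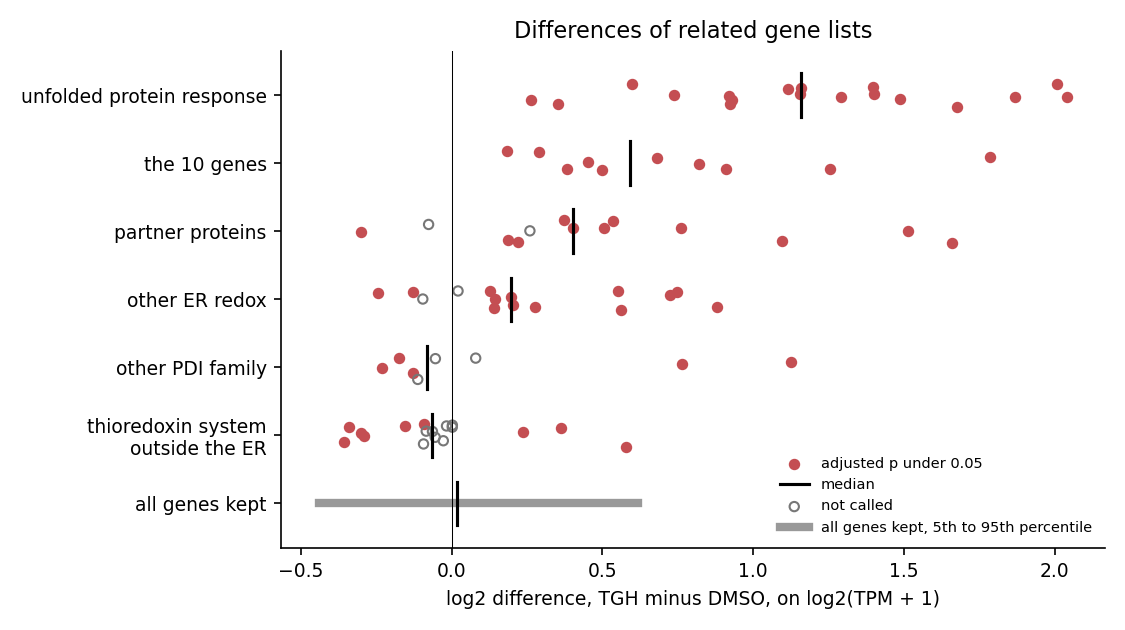
Difference of each tested gene, TGH minus DMSO on the log2(TPM + 1) scale, by gene list, with filled points for genes at an adjusted p under 0.05, open points for genes not called, a black line at each median and a bar for all genes from -0.44 to 0.62. The 10 genes and the unfolded protein response markers lie wholly above 0, whereas the thioredoxin genes outside the ER lie around it.

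Genes grouped by the ER stress element, and then kept by the filter on mean TPM, were mostly higher with TGH. A RefSeq window with the element was found for 19 of the deposited genes, of which 16 were tested, PDIA6 and ERO1LB among them. Of these 13 were higher, 0 lower and 3 not called by limma, with a median of 0.70. Over the 9538 tested genes with a window 2727 were higher (28.6%), 2628 were lower and the median was 0.01. Beside the chaperones named above, the higher genes include XBP1, a transcription factor of the response, at 0.74, FICD, which modifies BiP, at 0.85, and CANX, calnexin, at 0.51, while EIF2A, SYNPO and ZNF17 were not called, at 0.03, 0.11 and 0.01. These 6 genes were picked for naming after their values were seen. No test compared this group with other genes, and ERO1LB passed the filter on mean TPM only through its TGH libraries.

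**Figure D5:**
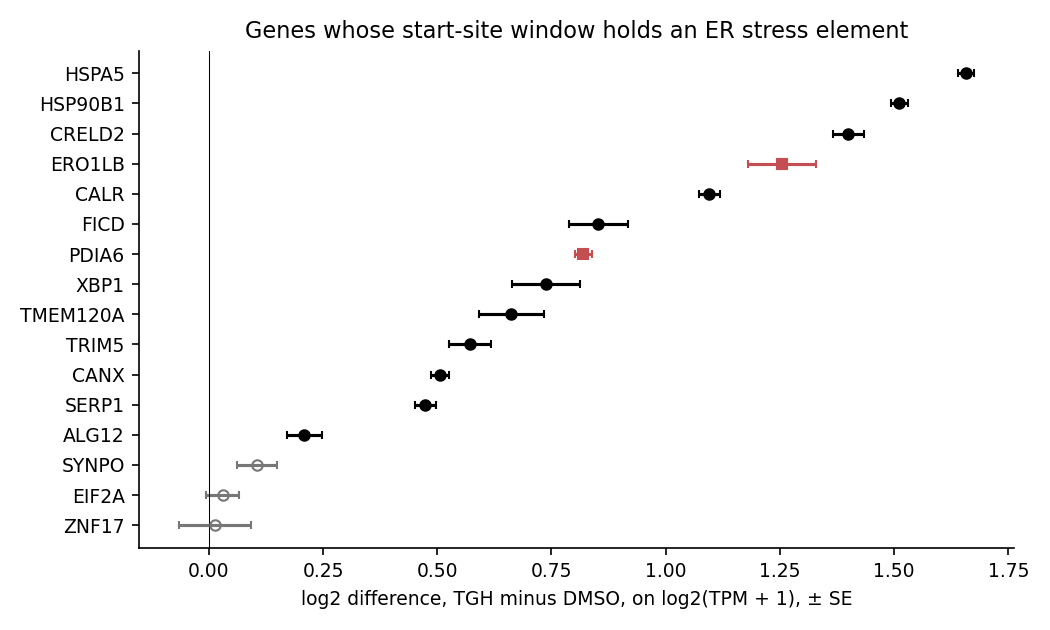
Difference ± SE of the 16 tested genes whose start-site window holds an ER stress element, TGH minus DMSO on the log2(TPM + 1) scale, with red squares for PDIA6 and ERO1LB, black points for other called genes and open grey points for genes not called. The values run from 0.01 for ZNF17 to 1.66 for HSPA5, with ERO1LB at 1.25 and PDIA6 at 0.82.

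The listed genes hold 50.2% to 51.9% of the TPM scale's full total in each library. Epithelial markers were present in all libraries, 6 of 6 in the table being tested. Among them 1 was called higher (16.7%), 3 lower (50%) and 2 not called, beside 28.9% higher and 26.3% lower over all genes tested. KRT7 was at 851 ± 7.67 TPM with DMSO and 986 ± 14.1 TPM with TGH, while KRT8, KRT18 and EPCAM, named after their values were seen, fell by 0.51, 0.45 and 0.13 on the log2 scale. Summed epithelial markers were at 2660 to 2759 TPM with DMSO and 2456 to 2498 TPM with TGH. Of luminal prostate markers HOXB13 was at 29.5 TPM with DMSO and 19.9 TPM with TGH. Defining markers of other cell types were low: PTPRC was at most 0.129 TPM, endothelial markers summed to at most 0.598 TPM with KDR highest on average, and fibroblast markers to at most 4.83 TPM, most of it COL1A1. CD68 alone of 6 immune markers was tested and rose by 1.12, with the other 5 at most 0.254 TPM in any library and a summed immune level of 20.8 to 22.3 TPM with DMSO and 47.3 to 48.8 TPM with TGH. The part of these marker differences in the results was not tested. Of plasma cell markers, whose cells are rich in isomerases, SDC1 was at 66.9 and 70.0 TPM and MZB1 was at most 0.377 TPM. In bulk RNA a change in the mix of cells and a change of RNA per cell cannot be told apart.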

How the data were processed

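RNA of PC-3 cells (3 libraries with TGH, 3 with DMSO) was sequenced after depletion of ribosomal RNA with a strand-keeping kit, per the labels' protocols. Per the values themselves, the table the authors deposited holds log2(TPM + 1) with 1 entry per symbol; the offset of 1 is read from the values, whose smallest is 0. Build hg19 is named by the submitters' processing notes. Aligner, quantifier and annotation: not given in the sources used here. TPM keeps no read total, so depth is unknown and no counting interval is given.

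The 12018 genes averaging 1 TPM or more across the 6 libraries were compared with limma 3.58.1 in R 4.3.3 (trended variances, two-sided, Benjamini-Hochberg over all genes tested, call at an adjusted p under 0.05). The step was tested on simulated tables with normal noise, in which far fewer genes were changed than were called here. That test says little of data with so many changed genes. Ratios within a library were compared by exact permutation with scipy 1.17.1. Motifs were searched on both strands of RefSeq windows (GRCh38.p14), and overlapping genes were read from GENCODE 29 by name. Figures were drawn with matplotlib 3.10.9. Named are all members, every tested gene of the other isomerase family, the 4 genes with the smallest p of each other list and the highest marker of each cell type, beside defining markers; others are said to be named after their values were seen. The members and lists were chosen with earlier results of these data known. Same-numbered libraries were checked for pairing by their deviations from group means. Alternatives were other offsets, filters, scalings and variance models, the replicate number as a block, DMSO replicate 3 alone, and leaving out each library. Running them on the comparison lists, on the genes with an ER stress element and on genes outside the 10, and adding overlapping entries to TXNDC5 and PDIA3, were choices made after seeing the data. List genes KLK2, KLK3, IGHG1, IGKC, PDILT and AGR3 are not analysed here, and protein sequences are not used here.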

Additional observations from a re-analysis of the deposited data

How the results depend on the processing

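The 10 genes kept their direction and their call under the 16 other settings in which they were tested. The largest adjusted p was 0.018, for TXNDC11 against DMSO replicate 3 alone, where the 3 TGH libraries give the spread, and 0.012, for PDIA5 without TGH replicate 1, in the other settings. At a mean of at least 5 TPM ERO1LB is left out and 9 genes are tested and higher. The replicate number pairs nothing by the labels, and deviations of same-numbered libraries correlated at 0.00877, 0.0544 and 0.228 across genes; not every library correlated best with its own number. With the replicate block 10 genes were higher, and over all genes 3273 were higher and 2958 lower, against 3479 and 3156 without it.

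Counts of the small comparison lists changed by a factor of more than 1.5, or to 0, in 7 cases. Smaller changes were more common and are not all listed. For example, the other isomerase family had 2 lower genes with the replicate block and 4 under median scaling, instead of 3. Thioredoxin genes outside the ER had 2 higher under median scaling, instead of 3. Without TGH replicate 3, 1 gene of the other isomerase family was lower instead of 3. Among other ER oxidation and reduction genes 1 instead of 2 was lower under quantile normalization, against DMSO replicate 3 alone, and without TGH replicate 1. At a mean of at least 5 TPM 0 partner genes were lower instead of 1. Among thioredoxin genes outside the ER 1 instead of 3 was higher without TGH replicate 2 and likewise without TGH replicate 3. ERP29 was called lower under median scaling (-0.14, adjusted p = 0.04) and without DMSO replicate 3 (-0.16, adjusted p = 0.0076), and SDC1 higher under quantile normalization (0.12, adjusted p = 0.01) and without DMSO replicate 1 (0.08, adjusted p = 0.042). The fall of COL1A1 was not called against DMSO replicate 3 alone or without TGH replicate 1. The genes with an ER stress element had 11 to 14 higher and 0 lower. The cause of these changes was not tested.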
